A study of Homo sapiens with 8 samples.

Results

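Regions of acetylated histone H3 lysine 27 (H3K27ac) that lay in gene deserts, far from any protein-coding gene, were described after knockout of ARID1A and in control cells. Both were MDA-MB-231, an established cell line from a triple-negative breast cancer. Peaks of the knockout and control lists on chromosomes 1 to 22 and X were merged where they overlapped by at least 1 bp. A merged region was counted as a gene-desert region if it touched no RefSeq protein-coding gene and lay more than 250 kb from the nearest end of any. This held for 2325 of 48662 merged regions (4.78%). A region with peaks of both lists is called shared, one with knockout peaks alone knockout-only, and one with control peaks alone control-only. All positions are on hg38.

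The 8 libraries formed 4 groups of 2, namely ARID1A knockout immunoprecipitate, knockout input, control immunoprecipitate and control input. No treatment was given in the labels, and all libraries came from the same cell line, so the groups differed by genotype and by library type. The labels did not state whether the knockout was 1 clone or a pool of cells, or whether replicates were separate cultures. They gave an anti-H3K27ac antibody in the sample characteristics but named one against H3K4me3 in the extraction protocol, and the mark is called H3K27ac here after the titles and characteristics. Each genotype had 1 peak list, called against its own input, so nothing below has a replicate error, and the genotype could not be tested. Intervals are exact (Clopper-Pearson) 95% binomial intervals and cover counting error only. They take regions as independent, although neighbouring regions were often of the same class, so they may be too narrow. Whether intervals overlap is a description and not a test.

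H3K27ac is laid down by the acetyltransferases p300 and CBP and marks active promoters and enhancers. Gene deserts are long stretches without protein-coding genes, and many of them border developmental regulators and carry distant enhancers or long non-coding RNA (lncRNA) genes. ARID1A belongs to the BAF form of SWI/SNF, a remodelling complex that slides and evicts nucleosomes and is known to act at enhancers.

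The knockout list held 42552 peaks on these chromosomes and the control list 39797. The median fragment pileup of a peak, a coverage signal given by the authors, was 32.0 in the knockout list and 22.7 in the control list. Median fold enrichment over the input-based background, also the authors' value, was 5.35 in the knockout list and 5.18 in the control list. The read depth of the libraries was not given in the sources used here, and the part of pileup or depth in the differences below was not tested. As a check of the cell line, both lists had a peak within 1 kb of an end of VIM, CD44, AXL and CAV1, mesenchymal and basal genes known from this line, and neither had one at PTPRC, CD3E or ALB, genes of leukocytes, T cells and hepatocytes. The luminal gene ESR1 had such a peak in the knockout list alone, and the luminal gene GATA3 and the neuronal gene SNAP25 had one in both.

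Sequences that lay in some of the gene-desert regions are shown first. The microRNA genes MIR221 and MIR222 lay inside the widest gene-desert region of all, on chromosome X. In the mature sequences below (RefSeq, GRCh38.p14), capitals mark the seed, bases 2 to 8 from the 5′ end, which pairs with target messages. The 2 3p arms share the seed GCUACAU, and the 5p arm of miR-222 carries another.
hsa-miR-221-3p: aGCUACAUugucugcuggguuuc
hsa-miR-222-3p: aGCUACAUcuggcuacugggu
hsa-miR-222-5p: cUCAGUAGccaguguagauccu

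The next sequences are lncRNA promoters that lay in gene-desert regions, each 250 bases before to 50 bases after the annotated start, on the strand of the gene (RefSeq, GRCh38.p14). NIHCOLE had the highest fold enrichment among knockout-only regions at a lncRNA start, LOC105370998 had the highest and LINC02725 the next among control-only ones, and MIR222HG, LINC00702 and LINC02015 are shared examples taken from deserts described below. These examples were chosen after their values were seen. Capitals mark TGANTCA, searched on both strands with any base at N. It is a loose form of TGA(C/G)TCA, the binding motif of AP-1 (FOS and JUN) factors.
NIHCOLE, knockout-only, chr5:104080648-104080947, plus strand: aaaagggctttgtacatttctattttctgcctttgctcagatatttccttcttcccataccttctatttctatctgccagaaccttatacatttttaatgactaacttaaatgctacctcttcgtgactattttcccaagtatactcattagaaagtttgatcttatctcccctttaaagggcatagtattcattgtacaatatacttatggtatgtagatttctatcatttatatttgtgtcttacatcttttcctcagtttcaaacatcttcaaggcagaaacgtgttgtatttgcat
LOC105370998, control-only, chr15:96053327-96053626, minus strand: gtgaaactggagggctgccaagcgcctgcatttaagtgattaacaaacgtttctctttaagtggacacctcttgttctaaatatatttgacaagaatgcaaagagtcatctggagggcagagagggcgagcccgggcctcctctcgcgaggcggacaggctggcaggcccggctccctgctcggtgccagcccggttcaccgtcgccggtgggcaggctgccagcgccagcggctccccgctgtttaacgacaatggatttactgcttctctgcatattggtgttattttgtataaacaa
LINC02725, control-only, chr11:128095509-128095808, plus strand: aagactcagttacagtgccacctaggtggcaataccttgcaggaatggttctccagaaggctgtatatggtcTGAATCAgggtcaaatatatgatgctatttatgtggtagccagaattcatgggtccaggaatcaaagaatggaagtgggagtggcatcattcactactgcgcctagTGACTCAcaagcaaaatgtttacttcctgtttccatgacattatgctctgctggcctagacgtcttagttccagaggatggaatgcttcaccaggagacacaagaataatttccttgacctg
LINC00702, shared, chr10:4243863-4244162, minus strand: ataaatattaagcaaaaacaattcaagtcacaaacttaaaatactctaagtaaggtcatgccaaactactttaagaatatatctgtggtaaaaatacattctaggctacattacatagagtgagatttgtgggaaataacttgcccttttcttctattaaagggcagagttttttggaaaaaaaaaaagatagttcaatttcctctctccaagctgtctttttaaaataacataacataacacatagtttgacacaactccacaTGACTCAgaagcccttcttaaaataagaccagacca
MIR222HG, shared, chrX:45770218-45770517, minus strand: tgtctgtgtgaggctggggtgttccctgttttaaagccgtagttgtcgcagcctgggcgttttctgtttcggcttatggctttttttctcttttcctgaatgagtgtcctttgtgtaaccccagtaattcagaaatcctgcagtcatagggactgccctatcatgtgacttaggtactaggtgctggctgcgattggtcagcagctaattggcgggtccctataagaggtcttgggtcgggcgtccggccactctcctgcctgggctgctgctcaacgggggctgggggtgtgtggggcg
LINC02015, shared, chr3:177816615-177816914, plus strand: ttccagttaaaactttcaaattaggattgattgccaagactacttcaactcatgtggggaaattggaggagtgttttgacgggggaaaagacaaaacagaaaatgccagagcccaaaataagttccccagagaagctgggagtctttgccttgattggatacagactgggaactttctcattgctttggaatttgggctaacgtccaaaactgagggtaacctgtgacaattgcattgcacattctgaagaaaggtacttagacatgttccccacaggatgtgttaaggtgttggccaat
The motif occurred in 2 places in LINC02725, as TGAATCA and TGACTCA, and in 1 place in LINC00702, as TGACTCA. It was in none of the other 4 windows, which says only that these letters are absent there.

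The first question was how far the acetylated regions of gene deserts were held in common by both genotypes. Of the 2325 gene-desert regions, 815 were knockout-only (35.1%, interval 33.1 to 37.0), against 19.6% knockout-only over all merged regions. A further 453 were control-only (19.5%, interval 17.9 to 21.2), against 14.7% control-only over all merged regions. The other 1057 (45.5%, interval 43.4 to 47.5) were shared. Outside gene deserts, 18.8% of 46337 regions were knockout-only (interval 18.4 to 19.2), 14.5% were control-only (interval 14.1 to 14.8) and 66.7% were shared. Both genotype-only classes therefore took a larger share in gene deserts than elsewhere, with intervals that did not overlap, and the shared class a smaller one. There were 1.80 knockout-only regions for each control-only region in gene deserts and 1.30 elsewhere.

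The knockout-only share was higher at each longer distance from genes, up to 500 kb. It was 15.6% among regions touching a protein-coding gene, 22.2% within 10 kb of one, 24.1% at 10 to 50 kb, 27.5% at 50 to 100 kb and 31.4% at 100 to 250 kb. Within the deserts it was 36.0% at 250 to 500 kb, 33.8% at 500 kb to 1 Mb and 33.7% beyond 1 Mb, with intervals that overlapped. The control-only share behaved differently. It lay between 13.7% and 16.2% in all 5 classes up to 250 kb, and was 17.5% at 250 to 500 kb, 21.2% at 500 kb to 1 Mb and 24.4% beyond 1 Mb (interval 19.2 to 30.3). The limit of 250 kb is not a visible break in the knockout-only share. At 200 to 250 kb, just outside the limit, 35.2% of 602 regions were knockout-only and 13.95% control-only, and just inside it, up to 300 kb, 33.7% of 406 were knockout-only and 17.7% control-only. The nearest regions on either side of the limit lay 249.87 kb and 250.108 kb from a gene, and both were knockout-only.

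**Figure D1:**
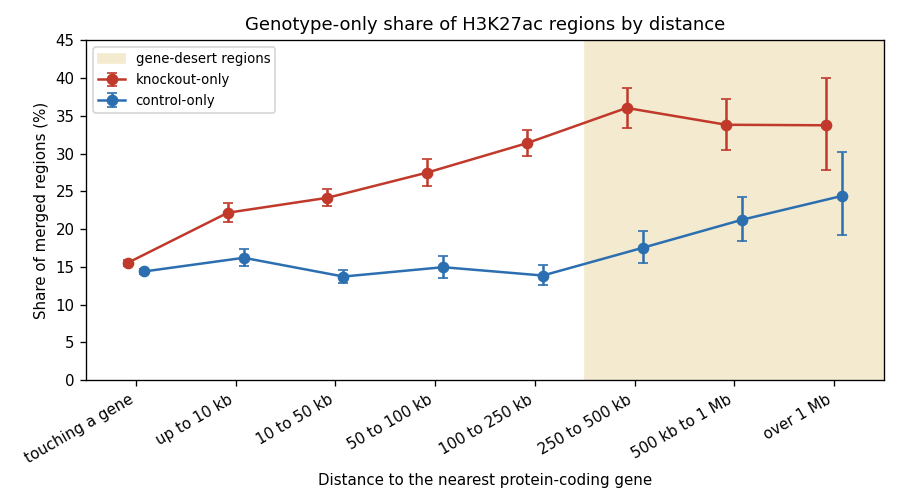
Share of merged regions that were knockout-only (red) or control-only (blue) in 8 classes of distance to the nearest protein-coding gene, in percent, with exact 95% binomial intervals as bars. The red points lie at 15.6% for regions touching a gene and at 36.0% for 250 to 500 kb, and the blue points stay between 13.7% and 16.2% up to 250 kb and reach 24.4% beyond 1 Mb.

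Gene-desert peaks were weaker than others in both lists, and weak peaks were more often without a partner in the other list. The median gene-desert peak stood at percentile 33.8 of the knockout list and 34.5 of the control list by fold enrichment. Peaks were therefore also compared within quartiles of their own list. In the weakest quartile of the knockout list, 65.7% of 715 gene-desert peaks overlapped no control peak, against 52.5% of peaks elsewhere. The corresponding shares were 43.1% and 28.5% in the second quartile, 15.9% and 5.93% in the third, and 4.72% of 106 desert peaks (interval 1.55 to 10.7) and 0.399% of the rest in the strongest. Within each quartile, gene-desert peaks of the knockout list thus lacked a partner more often, with intervals that did not overlap. The quartiles did not fully match strength. In quartile 3 the median percentile was 59.4 in deserts and 62.6 elsewhere, and in quartile 4 it was 82.6 and 87.6. In quartile 1 it was 13.5 and 12.4, and in quartile 2 it was 36.6 and 37.5.

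In the control list the weakest quartile went the other way, with 47.2% of 562 gene-desert peaks lacking a knockout peak (interval 43.0 to 51.4) and 49.7% of the rest (interval 48.7 to 50.7), a difference within counting error. The shares were 27.9% in deserts and 18.8% elsewhere in the second quartile, 9.48% and 2.64% in the third, and 1.87% (interval 0.227 to 6.59) and 0.173% (interval 0.101 to 0.276) in the strongest. Here the desert share was the higher with intervals apart in quartiles 2 and 3, and the intervals overlapped in the weakest and strongest. The strongest quartile rested on 5 knockout and 2 control peaks without a partner. The median percentile of control peaks was 59.0 in deserts and 62.6 elsewhere in quartile 3, and 83.7 and 87.6 in quartile 4. It was 14.2 and 12.4 in quartile 1, and 36.8 and 37.5 in quartile 2.

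**Figure D2:**
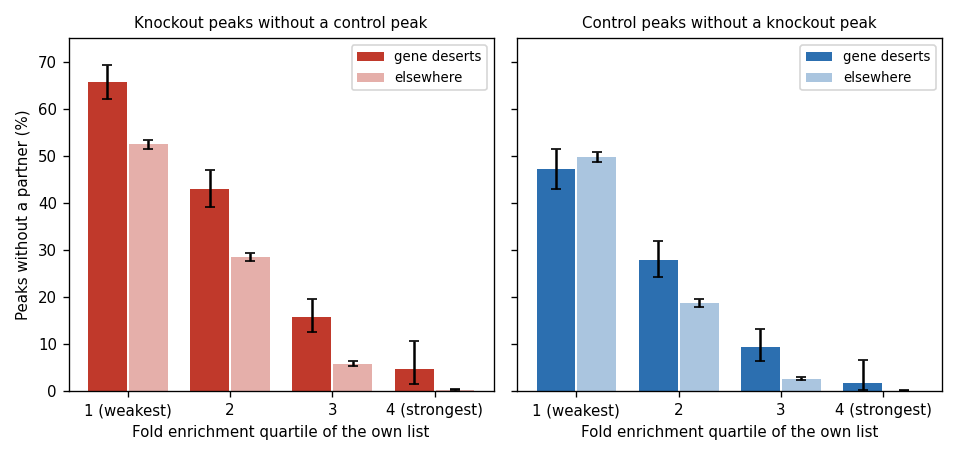
Percent of peaks without an overlapping peak in the other list, by quartile of fold enrichment within the own list, for the knockout list (left, red) and the control list (right, blue), with exact 95% binomial intervals. Dark bars are gene-desert peaks and pale bars all others, and the dark bar is the higher in all quartiles except the weakest of the control list, where it is 47.2% beside 49.7%.

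Acetylated sequence in gene deserts summed to 3.14 Mb in 1885 knockout peaks with a mean width of 1665 bp, and to 2.33 Mb in 1537 control peaks with a mean width of 1518 bp. The knockout sum was 1.35 times that of control, and it had both more and wider peaks. Elsewhere the knockout list covered 86.6 Mb and the control list 84.7 Mb. The shared regions themselves held 2.32 Mb of knockout and 1.96 Mb of control peaks, and in 670 of 1057 the knockout peaks covered more bases, against 385 where the control peaks did. Among 30924 shared regions elsewhere the knockout peaks covered more bases in 15516 and the control peaks in 15388. Genotype-only regions were narrow. Their median width was 778 bp for knockout-only and 611 bp for control-only regions, beside 1662 bp for shared ones. Regions over 10 kb numbered 2 among the knockout-only, none among the control-only and 22 among the shared. Of the knockout-only regions 74 (9.08%) stood in the upper 50% of their own list by fold enrichment, beside 7.43% of knockout-only regions elsewhere. Of the control-only regions 31 did (6.84%), beside 4.06% elsewhere.

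The 8 knockout-only regions with the highest fold enrichment lay on 6 chromosomes. The first, chr3:104435166-104447242, was 12.1 kb wide and also the widest knockout-only region, with a fold enrichment of 19.0, at percentile 93.9 of its list. It lay 920 kb from the nearest protein-coding gene, between ZPLD1 and ALCAM, an activated leukocyte adhesion molecule, overlapped the lncRNA gene LOC105374020, and had its nearest control peak 74.98 kb away. The next was chr9:40745244-40746181 (fold 11.9), between SPATA31A1 and FOXD4L6. Whether reads can be placed uniquely there was not tested. Then came chr8:29632420-29638214 (fold 11.8) between DUSP4, a MAP kinase phosphatase, and SARAF, where a control peak lay 3.38 kb away. The other 5, with folds of 9.57 to 11.3, were chr3:106533225-106535033, chr5:104079569-104081064 at the start of NIHCOLE, a lncRNA described in liver cancer as an aid to DNA end joining, chr3:191773174-191777251, chr13:83100173-83103150 between SPRY2 and SLITRK1, and chr10:2100555-2101899. Control peaks lay 10.2 to 192.6 kb from these 5.

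Among control-only regions the highest fold enrichment was 13.1, at chr13:68256129-68257676 between PCDH9 and KLHL1, 1.55 kb wide and 1026 kb from a gene, with the nearest knockout peak 23.3 kb away. The second, chr18:41630212-41632202, reached 11.04 in the desert before PIK3C3, the class III phosphoinositide 3-kinase of autophagy, with the nearest knockout peak 129 kb away. The other 6 had folds of 6.49 to 8.16 and lay on chromosomes 1, 2, 5 and 16. That at chr1:68881312-68882813 was 384 kb from any knockout peak, whereas that at chr1:238642216-238643607 had a knockout peak 2.09 kb away.

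The strongest shared region was chr6:14740873-14745991, 500 kb from the nearest of CD83 and JARID2, a partner of Polycomb repressive complex. Its fold enrichment was 26.4 in the knockout list, at percentile 98.6, and 23.96 in the control list, at percentile 99.5. A second region of the same desert, chr6:14728153-14736502, was also among the 8 strongest, with folds of 16.7 in the knockout list and 14.7 in the control list. The others lay in deserts bordered by FIGN on chromosome 2, SNX7 on chromosome 1, SPRY2 on chromosome 13, METTL15 on chromosome 11, KLF6 on chromosome 10 and NECTIN3 on chromosome 3. All 8 stood above percentile 89 of both lists. Of 151 gene-desert regions whose best peak stood in the strongest quartile of its list, 5 were knockout-only, 2 control-only and 144 (95.4%) shared.

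The gene-desert regions fell into 430 deserts, each the interval between neighbouring protein-coding genes or beyond the last one. Counts and sums for a desert cover its gene-desert regions alone, so regions within 250 kb of a border gene are left out. Of 696 gaps over 500 kb between genes, 425 held a gene-desert region and 271 none, and 14 such regions lay at chromosome ends. The 564 Mb of sequence between genes and over 250 kb from them held 4.10 regions per Mb. Regions were unevenly spread. The median desert had 3, 119 deserts had 1, and 81 deserts with at least 10 regions held 1235 of all. Knockout-only regions outnumbered control-only ones in 221 deserts, control-only ones outnumbered knockout-only ones in 117, and the numbers were equal in 92. Among the 81 with at least 10 regions, 61 had more knockout-only and 18 more control-only regions.

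Regions of a class were often neighbours along the chromosome. Within a desert, 458 of 577 knockout-only regions with a later genotype-only neighbour were next followed by another knockout-only region (79.4%), and knockout-only regions made up 64.3% of genotype-only regions in deserts. Likewise 189 of 322 control-only regions were next followed by a control-only region (58.7%), and control-only regions made up 35.7%. In 23 deserts there were at least 5 knockout-only and no control-only regions, and in 4 deserts the reverse.

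**Figure D3:**
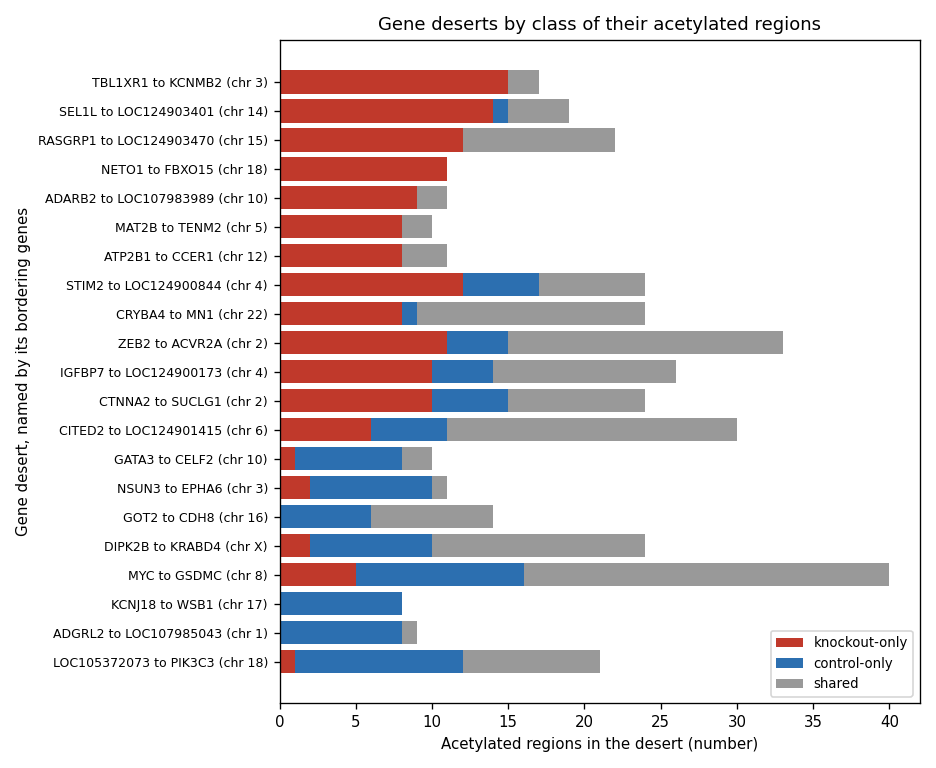
Number of knockout-only (red), control-only (blue) and shared (grey) regions in 21 gene deserts, those with at least 24 regions and others with a large excess of either genotype-only class, named by their bordering genes and ordered by knockout-only minus control-only. The top desert has 15 knockout-only and no control-only regions and the bottom one 1 knockout-only and 11 control-only.

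The desert with the most regions, 40, lay on chromosome 8 between MYC, the growth-promoting transcription factor, and GSDMC, and spans PVT1, a lncRNA gene next to MYC that is often amplified with it in cancer. It held 5 knockout-only, 11 control-only and 24 shared regions, and its peaks covered 72.9 kb in the knockout list and 101 kb in the control list. The difference lay on the PVT1 side. A cluster of 28 regions at chr8:127994036-128428778 had no knockout-only, 10 control-only and 18 shared regions, with 59.8 kb of knockout and 93.0 kb of control peaks. The part of PVT1 over 250 kb from MYC was touched by 14 gene-desert regions, none knockout-only, 8 control-only and 6 shared. They covered 14.5 kb in the knockout list and 41.2 kb in the control list. Regions in the rest of PVT1, nearer to MYC, were not counted. The widest of these 6 shared regions held 4.36 kb of knockout and 9.41 kb of control peak. Further from MYC, the 20.5 kb region chr8:128166417-128186922 over LOC124902020 was held by both, with a fold of 15.8 in the knockout list and 21.7 in the control list. The 11 control-only regions were weak, with folds of 2.24 to 3.27. A −log10 q of at least 5 was reached by 1 of the 5 knockout-only and 1 of the 11 control-only regions, so the excess of control-only regions in this desert lay among weak peaks.

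The desert between DIPK2B and KRABD4 on chromosome X held the most acetylated sequence, 116.1 kb in the knockout list and 116.9 kb in the control list, in 24 regions of which 2 were knockout-only, 8 control-only and 14 shared. It holds MIR221 and MIR222, microRNAs that repress the cell cycle inhibitor CDKN1B and are abundant in basal-like breast cancer cells, and their host gene MIR222HG. The region over these genes, chrX:45741906-45783557, was 41.7 kb wide. In the knockout list it was 1 peak of fold 13.2. In the control list it was 3 peaks, which covered 37.7 kb and had a best fold of 9.22. The MIR222 hairpin, at chrX:45747015-45747124, lay in a peak of both lists. The MIR221 hairpin, at chrX:45746157-45746266, lay in the knockout peak but in a gap between control peaks that ended 903 bp on 1 side and started 239 bp on the other. The start of MIR222HG, whose promoter is printed above, lay in this shared region. Around it, the 8 control-only regions had folds of 2.56 to 5.21 and the larger of the 2 knockout-only regions a fold of 6.37. A −log10 q of at least 5 was reached by 2 of the 8 and 1 of the 2. The shared region at LINC02595, chrX:45846676-45853313, had folds of 14.8 in the knockout list and 11.8 in the control list.

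Of the other deserts with many regions, most held more knockout-only than control-only ones. The desert between ZEB2, a repressor that drives epithelial-mesenchymal transition, and the activin receptor gene ACVR2A had 33 regions, of which 11 were knockout-only, 4 control-only and 18 shared. That after CITED2, a transcriptional coregulator, had 30, with 6 knockout-only, 5 control-only and 19 shared. The desert after IGFBP7 on chromosome 4 had 26, with 10 knockout-only, 4 control-only and 12 shared. Deserts with 24 regions also stood between CTNNA2 and SUCLG1, with 10 knockout-only and 5 control-only regions, after STIM2, with 12 and 5 of these, and between CRYBA4 and MN1, with 8 and 1. The last of these covered 51.2 kb in the knockout list and 48.0 kb in the control list, so its 15 shared regions carried most of its acetylation. After ZEB2, 5 of 11 knockout-only and 1 of 4 control-only regions reached −log10 q of 5. After CITED2 these were 2 of 6 and none of 5, and after IGFBP7 6 of 10 and none of 4. After CTNNA2 they were 6 of 10 and 2 of 5, after STIM2 5 of 12 and 1 of 5, and after CRYBA4 2 of 8 and none of 1.

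Several deserts were nearly or wholly knockout-only. They are described here because of this skew, so their counts are a description. The desert between TBL1XR1, a subunit of the NCoR and SMRT corepressor complexes, and the potassium channel gene KCNMB2 had 15 knockout-only, no control-only and 2 shared regions, with 28.1 kb of knockout and 2.27 kb of control peaks. The lncRNA gene LINC00578 in it was touched by 6 knockout-only regions and 1 shared region. The 15 knockout-only regions had folds of 2.47 to 7.45, and 9 of them reached −log10 q of 5. A group of them flanked the shared region at the start of LINC02015, chr3:177816218-177817961, whose fold was 8.54 in the knockout list and 4.17 in the control list. The largest, chr3:177808831-177814069 and chr3:177826689-177831608, measured 5.24 and 4.92 kb, with folds of 4.44 and 5.37.

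All 11 gene-desert regions between NETO1 and FBXO15 on chromosome 18 were knockout-only, with folds of 2.72 to 6.42, and 2 of them reached −log10 q of 5. A further region there, 249.659 kb from a gene and so not counted, was also knockout-only, with a fold of 7.43. After SEL1L on chromosome 14 there were 14 knockout-only, 1 control-only and 4 shared regions. Of the 14, with folds of 2.28 to 7.91, 5 reached −log10 q of 5, as did the control-only region. None of the 19 touched an annotated non-coding gene.

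Other deserts held both knockout-only regions and shared regions with longer knockout peaks. After RASGRP1, an activator of Ras, chromosome 15 had 12 knockout-only, no control-only and 10 shared regions, with 48.3 kb of knockout and 18.3 kb of control peaks. Of its 12 knockout-only regions 8 reached −log10 q of 5. In all, 11 knockout-only and 10 shared regions lay in LOC105370777, a lncRNA gene with 47.5 kb of knockout and 18.3 kb of control peaks. After ADARB2, a brain RNA-editing enzyme homologue, there were 9 knockout-only and 2 shared regions, and 8 of the 9 reached −log10 q of 5. The wider shared region, chr10:2204459-2226322, was 1 knockout peak of 21.9 kb (fold 9.15), against 3 control peaks that summed to 6.96 kb (best fold 3.99). In a cluster between DUSP4 and SARAF, chr8:29606098-29775058, 5 knockout-only and 8 shared regions held 39.6 kb of knockout and 13.8 kb of control peaks. A further wide shared region, chr3:30282022-30297694 after RBMS3, was 1 knockout peak of 15.7 kb beside 3 control peaks of 7.64 kb in all.

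Fewer deserts were skewed the other way. That before PIK3C3 on chromosome 18 had 1 knockout-only, 11 control-only and 9 shared regions between genes 4.18 Mb apart. Its control-only folds were 2.67 to 11.04. The knockout-only region did not reach −log10 q of 5, and 5 of the 11 control-only ones did. After ADGRL2 on chromosome 1 there were no knockout-only, 8 control-only and 1 shared region, with 0.466 kb of knockout and 9.34 kb of control peaks, and 4 of the 8 reached −log10 q of 5. Between NSUN3 and EPHA6 there were 2 knockout-only, 8 control-only and 1 shared region, and 1 of the 2 and 5 of the 8 reached −log10 q of 5. That shared region, chr3:96477999-96488059, went against the rest of its desert, with 10.1 kb of knockout peak and 0.884 kb of control peak. Between GATA3, the luminal transcription factor, and CELF2 there were 1 knockout-only, 7 control-only and 2 shared regions. The 7 had folds under 4, and 1 of them reached −log10 q of 5, as did the knockout-only region. All 8 gene-desert regions between KCNJ18 and WSB1 were control-only, and 2 reached −log10 q of 5. They lay at chr17:22088420-22570215, beside the centromere and partly over the ubiquitin pseudogene UBBP4, in sequence with repeats, where read placement is uncertain.

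**Figure D4:**
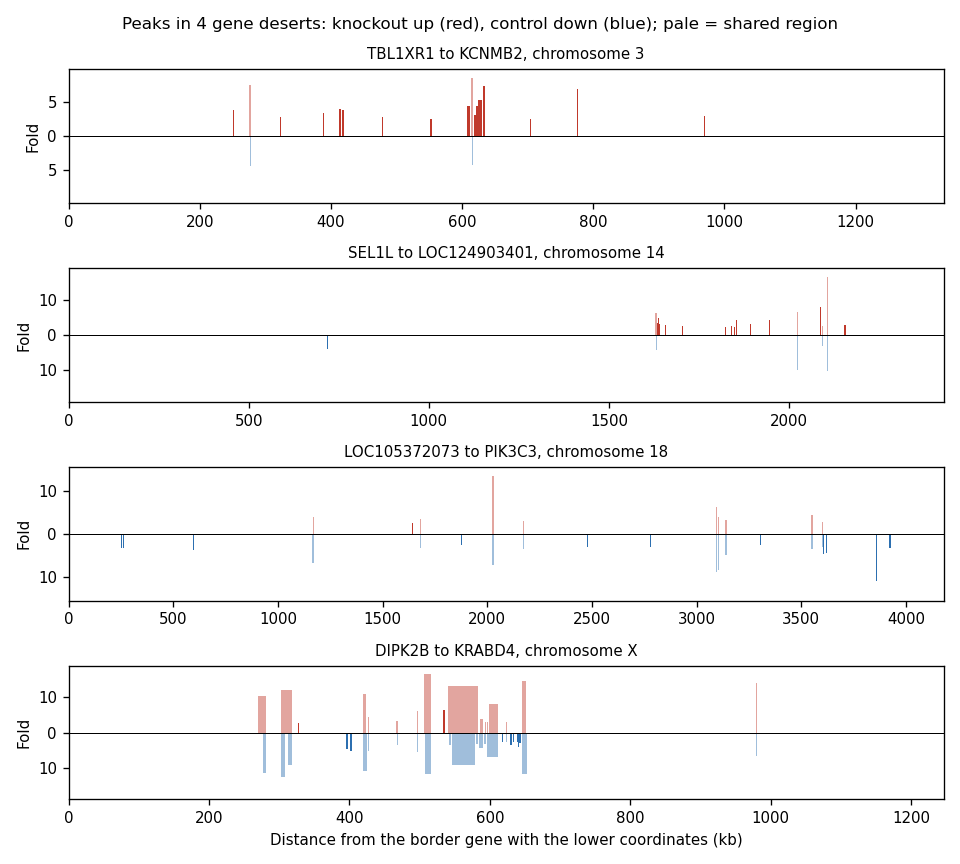
Peaks in 4 gene deserts, with knockout peaks drawn up in red and control peaks drawn down in blue. The height is the authors' fold enrichment, the horizontal axis is kb from the border gene with the lower coordinates, pale bars belong to shared regions, and the narrowest peaks are widened to be visible. The TBL1XR1 desert shows 15 dark red bars and no dark blue one, the PIK3C3 desert 1 dark red and 11 dark blue, and the DIPK2B desert broad pale bars in both genotypes.

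Deserts beside 4 transcription factor genes that were looked up by name after the results were known differed among themselves. Acetylated regions nearer to these genes are not counted here. Between KLF4 and ACTL7B there were 7 knockout-only, 1 control-only and 13 shared regions, with 45.7 kb of knockout and 37.8 kb of control peaks. Between KCNJ2 and SOX9, a desert known for distant SOX9 enhancers, 3 regions were knockout-only, none control-only and 7 shared, with 35.4 kb of knockout and 13.4 kb of control peaks. After KLF6 there were 4 knockout-only, no control-only and 14 shared regions. After SOX2 there were no knockout-only, 4 control-only and 2 shared regions, with 1.84 kb of knockout and 7.43 kb of control peaks.

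Over all deserts, the knockout list covered more sequence in 283, the control list in 146, and both the same in 1. By chromosome, the knockout-only share was higher in deserts than elsewhere on 21 of 23 chromosomes and the control-only share on 19. The knockout-only share of desert regions was highest on chromosome 14, at 57.8% of 64 (interval 44.8 to 70.1), beside 16.8% elsewhere on it. The SEL1L desert alone gave 14 of its 37 knockout-only desert regions. Next came 47.7% of 86 on chromosome 12 (20.8% elsewhere) and 44.4% of 169 on chromosome 13 (26.8% elsewhere). On chromosome X the knockout-only share was 16.1% of 62 (interval 8.02 to 27.7), beside 16.8% elsewhere on that chromosome, while 29.0% were control-only. Control-only regions outnumbered knockout-only ones on chromosomes 10, 17, 19 and X. Chromosome 4 held the most desert regions, 285, with 33.7% knockout-only and 18.9% control-only, and chromosome 19 the fewest, 3.

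**Figure D5:**
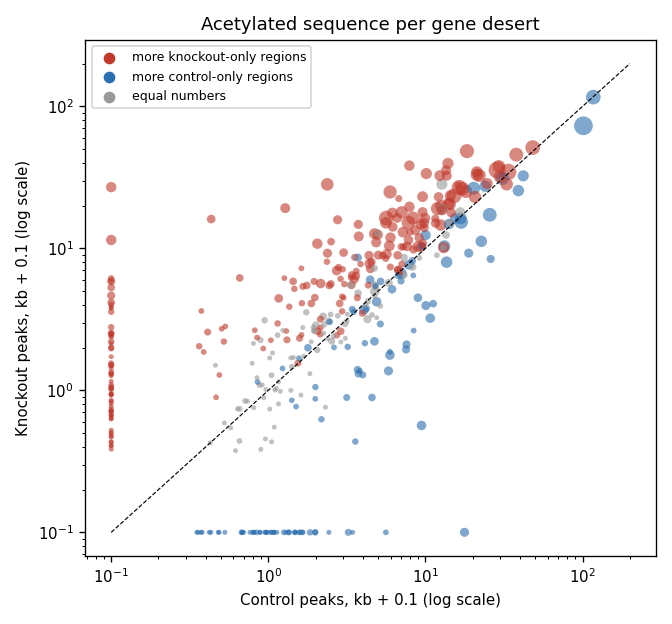
Acetylated sequence per gene desert in the knockout list (vertical) and the control list (horizontal), in kb plus 0.1 on log scales, for 430 deserts, with point area growing with the number of regions and the dashed line marking equal values. Of these, 283 points lie above the line and 146 below it, and points on the left or lower edge are deserts with peaks of 1 list alone.

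Clusters were defined as at least 3 gene-desert regions with gaps of at most 50 kb. There were 219, with 1017 regions (43.7% of all), a median of 4 regions and a median span of 58.0 kb. In 146 clusters knockout-only regions outnumbered control-only ones, in 45 the reverse held, and 28 were tied. Wholly knockout-only clusters numbered 22, wholly control-only ones 6 and wholly shared ones 13. The longest by peak sequence was chrX:45595784-45853313 around MIR222HG, with 20 regions, followed by those at PVT1, in LOC105370777, between DUSP4 and SARAF, after ADARB2 and at LINC01638 in the desert before MN1. The last had 4 knockout-only and 6 shared regions but like sums, 33.3 kb of knockout and 32.4 kb of control peaks. A control-rich cluster of 6 regions, chr8:122079200-122188342 between HAS2, a hyaluronan synthase, and ZHX2, had no knockout-only, 4 control-only and 2 shared regions, with 8.32 kb of knockout and 25.9 kb of control peaks.

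The 4 regions farthest from protein-coding genes were near the unassembled short arm of chromosome 22, up to 4844 kb from OR11H1, with 3 control-only and 1 shared, and control folds of 2.53 to 4.75. The fifth, chr4:33709076-33709816, was knockout-only, with a fold of 2.55, 2296 kb from the nearest of PCDH7 and ARAP2. The median distance over all gene-desert regions was 461 kb, and 246 lay over 1 Mb from a gene.

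Non-coding genes were touched by 812 of the 2325 regions, and 1513 touched no annotated gene. The 465 touched genes comprised 424 lncRNA genes, 18 pseudogenes, 14 transcribed pseudogenes, 3 microRNA genes (MIR221, MIR222 and MIR1207 within PVT1), 2 snoRNA genes and 4 others. Of the lncRNA genes, 279 were touched by a shared region, 90 by knockout-only regions alone and 49 by control-only regions alone. From a list of 52 names of known non-coding genes, 50 were in the annotation and 13 were touched. Besides those above, LINC01122 had 3 control-only and 2 shared regions and covered 2.01 kb in the knockout list and 6.24 kb in the control list. MIR99AHG, the host of a microRNA cluster, had 1 knockout-only, 1 control-only and 2 shared regions, with 3.98 kb of knockout and 10.3 kb of control peaks. CASC15 had 2 knockout-only, 1 control-only and 1 shared region, LINC00824 had 1 of each class, and LINC00351 had 1 knockout-only and 2 shared regions. LINC01116 and CASC17 had 1 shared region each, and MIR100HG had 1 control-only region.

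The starts of lncRNA genes that lay in gene-desert regions were mostly in shared ones. The RefSeq promoter table gave 1473 lncRNA starts in gene deserts, chromosome 8 not included, of which 63 (4.28%), from 60 genes, lay in 56 gene-desert regions. Of these 63 starts, 8 were in knockout-only regions (12.7%, interval 5.65 to 23.5), 3 in control-only regions (4.76%, interval 0.993 to 13.3) and 52 in shared regions (82.5%, interval 70.9 to 90.9). Several starts share a region, so the starts are not independent. Of the 56 regions, 8 were knockout-only, 3 control-only and 45 shared. Strength was not matched between regions with and without a start. Among lncRNA starts elsewhere, 29.3% lay in a region. Of those, 95.1% were in shared, 3.03% in knockout-only and 1.86% in control-only regions, so both genotype-only shares were higher at desert starts. The 8 knockout-only starts were led by NIHCOLE (fold 10.8) and FAM230C (fold 7.04), and the other 6 had folds of 2.38 to 4.13. FAM230C lay between the chromosome end and TUBA3C on chromosome 13, where unique read placement was not tested. The 3 control-only starts were LOC105370998 (fold 4.56), LINC02725 (fold 2.84) and MIR100HG (fold 2.35), a host of microRNAs.

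The promoters of acetylated desert starts had a higher median GC content than those without a peak. Their quartile ranges, 39.2% to 59.5% and 35.3% to 46.7%, overlapped. Median GC content was 44.7% over the 63 acetylated starts and 40.7% over 1410 desert starts without a peak. It was 58.7% over all 34961 promoters of the table, of which 22132 were protein-coding. Over the 12829 lncRNA promoters, the like set for desert lncRNA starts, it was 50%. The GC box GGGCGG, searched on both strands, was found in 20.6% of acetylated desert starts and 7.59% of those without a peak. It was in 25.6% of all lncRNA promoters and 45.03% of all promoters. TGANTCA was found in 17.5% of acetylated desert starts (11 of 63) and 12.6% of those without a peak. It was in 10.3% of all lncRNA promoters and 7.68% of all promoters. These shares are descriptions of windows of 300 bases and were not tested. Several of the 63 windows lay in the same region, and some overlapped, so they are not independent and some GC boxes may be counted more than once. Among the sequences printed above, GC content was 32.7% at NIHCOLE and 31.3% at LINC00702, and 54.7% at both LOC105370998 and MIR222HG.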

How the data were processed

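H3K27ac was profiled by chromatin immunoprecipitation of micrococcal nuclease-digested chromatin in MDA-MB-231 cells with ARID1A knocked out and in control cells, with 8 libraries in 4 groups of 2. The submitters' processing notes name Bowtie2 2.3.5.1, MACS2 2.2.6 and the build hg38. Options, read filters, library depth and any pooling of replicates are not given in the sources used here. The deposited columns used were peak position and width, pileup (coverage signal), fold enrichment over the input-based background (a ratio) and −log10 q-value, per the file headers. The lowest −log10 q was 1.00 in the knockout list and 1.01 in the control list.

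Of 42560 knockout and 39803 control peaks, 42552 and 39797 on chromosomes 1 to 22 and X were used and merged at an overlap of 1 bp. Distances were taken to 19821 protein-coding genes of RefSeq GRCh38.p14, the assembly of hg38. A further 153 rows for genes on alternate, unplaced or patch scaffolds were left out, since their positions are not on the chromosome. Ranks, percentiles and quartiles of fold enrichment were taken within a list. Where folds of both lists are given or drawn side by side, they are descriptions, and the part of depth in them was not tested. Merging and distances were checked on simulated data. Software comprised numpy 2.4.6, matplotlib 3.10.9, scipy 1.17.1 and pandas 2.3.3 under Python 3.11.15.

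The regions, lists and tests were chosen with earlier results of these data known. Regions named were the 8 with the highest fold of each genotype-only class and the 8 shared ones with the highest lower percentile, the 5 widest shared and the 3 widest of each other class, the 5 farthest, the 6 longest clusters and the 4 richest in each genotype-only class, and the 6 deserts with the most regions, with ties. Other deserts were chosen after their values were seen, and a few regions under these rules are not reported here. Alternatives covered distance, merging, overlap, peak threshold, strength, cluster gap and the gene set. Genome sequence was not used here, so sequences come from the RefSeq promoter and microRNA tables.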

Additional observations from a re-analysis of the deposited data

How the results depend on the processing

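No paired analysis was possible because each genotype had 1 peak list and no result came from a test, and for the same reason no replicate was left out. Of 101 values under other settings, 62 stayed close to the main value, 38 moved further and 1 reversed. Close means within 1.5 times for a count or a sum and within the width that the main share's interval gives on either side for a share or a difference of shares. The causes were not tested unless the setting itself changes the set.

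With distances over 100 kb there were 5089 regions, 1682 knockout-only (33.05%) and 836 control-only (16.43%), and the control-only excess over other regions was 1.925 percentage points instead of 5.02. Over 500 kb there were 1018 regions, 344 knockout-only and 224 control-only (22%), with a control-only excess of 7.456 points. With −log10 q of at least 5 there were 1300 regions, 42.08% knockout-only, 21.17 points above other regions instead of 16.25, and 180 control-only (13.85%), and a shared region becomes genotype-only here where the peak of 1 list misses the limit. With the upper 50% of each list by fold there were 664 regions, 256 knockout-only (38.55%, 22.85 points above) and 128 control-only (8.463 points above), and this setting by construction turns a shared region genotype-only where its weaker peak falls below the limit. Where genotype-only regions also had to lie over 5 kb from other-list peaks, the knockout-only share was 33.11% and the control-only excess 7.541 points.

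By fold quartile of the regions, the knockout-only share was 54.34% in quartile 1 (weakest), 13.45% in quartile 3 and 3.311% in quartile 4, and its excess over other regions was 10.85, 9.135, 7.773 and 2.968 points in quartiles 1 to 4. The control-only share was 30.64% in quartile 1, where it lay -8.321 points from other regions, the reversed value. It was 5.653% in quartile 3 (3.26 points above) and 1.325% in quartile 4 (1.186 points above). A cluster gap of 50 kb divided by 4 gave 103 clusters instead of 219, and 215 non-coding genes had a region within 1 kb of an end, against 465 touched anywhere. Of 25 named genotype-only regions, 15 lay over 500 kb from a gene. The limit of −log10 q of at least 5 was met by 20, the upper 50% by 18 and the 5 kb setting by 22. Under these settings a genotype-only region can drop out but cannot change class, so these counts do not test the class. Unknown depth limits every statement on weak peaks. The gene set chosen after seeing the data, with scaffold rows kept, kept all 25.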
